A study of Mus musculus with 8 samples.

Results

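The enzymes that build triglyceride from glycerol-3-phosphate or monoacylglycerol were followed in RNA-Seq libraries of mouse liver. They were chosen by symbol, as the products that act on the glycerol-phosphate route (Gpam, Gpat3, Gpat4, Agpat2, Lpin1, Lpin2, Lpin3, Dgat1, Dgat2) and the monoacylglycerol route (Mogat1). All 10 were among the 17810 genes listed, and all passed the filter on low counts, as 12395 genes did. The libraries came from 4 WT and 4 HKO male mice, 1 liver each, which were 5 months old and had eaten CD-HFD, a diet rich in fat with no added choline, for the last 3 months, starting when they were 8 weeks old. HKO mice carry loxP-flanked miR-33 alleles that Cre recombinase deletes in hepatocytes under the albumin promoter. The paper leaves open whether this Cre also affects miR-33 in cholangiocytes. WT mice were littermates on the same diet, and whether they carried the loxP-flanked alleles without Cre is not given in the sources used here. The level of miR-33 was not analysed here, so genotypes rest on the labels, and no chow-fed livers were analysed here, so each difference is one between genotypes on CD-HFD.

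Triglyceride is assembled on the endoplasmic reticulum and the outer mitochondrial membrane by adding fatty acyl chains to a glycerol backbone one at a time. Glycerol-3-phosphate acyltransferases (GPATs) add the first chain and acylglycerolphosphate acyltransferases (AGPATs) the next, lipins remove the phosphate to leave diacylglycerol, and diacylglycerol acyltransferases (DGATs) add the last chain. Monoacylglycerol acyltransferases reach diacylglycerol without glycerol-3-phosphate, and Mogat1 is known for its low level in normal mouse liver and its rise in steatosis.

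Within this group, the largest fall in HKO livers was that of Mogat1, and Gpam fell as well. The call of Gpam was close to the threshold (edgeR adjusted p = 0.0486) and was kept in 3 of 8 fits without 1 liver. The other 8 enzymes did not pass an adjusted p of 0.05 with edgeR's quasi-likelihood test. Gpat3 was lower in every HKO liver than in any WT liver, but it did not pass that threshold. Dgat2, the most abundant of the enzymes per kilobase of the longest annotated transcript, had a slightly higher mean in HKO livers that did not pass the test. Lpin1 was high in a single HKO liver, and the other HKO livers overlapped with WT livers.

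Because the mice lack a microRNA, the sequence that miR-33 reads was looked for in the enzymes' transcripts. The mature miR-33-5p is encoded at chr15:82198127-82198147 on the plus strand of GRCm38.p6 and is shown, from RefSeq, with its seed (bases 2 to 8) in capitals.
mmu-miR-33-5p: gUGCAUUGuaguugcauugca
CAATGCA and AATGCAA were searched on the transcript's strand in the 3′UTR, taking the longest one annotated for a gene; they share 6 letters and can overlap. A match was present in 2 of 10 enzymes, Gpam (chr19:55069845-55069851, minus strand) and Lpin1 (chr12:16536559-16536565, minus strand), both in the 3′UTR. They are shown with the matching letters in capitals, because one is a gene that fell and the other a gene whose mean rests on 1 liver.
Gpam: atcacgtgaCAATGCAgtctctaat
Lpin1: gctggtctaCAATGCAccatcttag
Of the 11517 tested genes with a 3′UTR of at least 50 bases, 16.2% held such a match, and 28.8% of those with a 3′UTR of 2000 to 4000 bases. The 3′UTR of Mogat1 is the shortest of the group, at 75 bases, and held no match. Of the 2 genes with a match, Gpam fell. Lpin1 had a positive log2 fold change that did not pass the test. Without HKO liver 1 it was -0.05, so no direction can be given for Lpin1.

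The promoters of the 2 genes that fell are shown from RefSeq on GRCm38.p6, over 250 bases before to 50 bases after a start, in the direction of transcription. The first belongs to Gpam (chr19:55127189-55127488, minus strand) and the next to Mogat1 (chr1:78510810-78511109, plus strand), and capitals mark ATTGG, which reads CCAAT on the other strand.
Gpam: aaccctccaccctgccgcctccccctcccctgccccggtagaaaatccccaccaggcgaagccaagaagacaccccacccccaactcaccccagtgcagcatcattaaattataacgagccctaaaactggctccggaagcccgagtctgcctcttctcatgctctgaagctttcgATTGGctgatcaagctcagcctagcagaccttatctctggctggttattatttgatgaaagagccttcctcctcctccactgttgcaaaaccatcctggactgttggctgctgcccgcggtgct
Mogat1: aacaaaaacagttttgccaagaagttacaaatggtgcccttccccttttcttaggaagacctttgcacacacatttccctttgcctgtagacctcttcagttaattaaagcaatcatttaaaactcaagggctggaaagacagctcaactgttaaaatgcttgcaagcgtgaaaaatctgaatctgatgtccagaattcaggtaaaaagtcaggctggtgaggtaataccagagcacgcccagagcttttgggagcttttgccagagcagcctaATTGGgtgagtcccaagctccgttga
Promoter windows were matched for 7 of the 10 enzymes, 11 windows in all. CCAAT, searched on both strands, was found in 3 of the 11 and in 37.4% of 32851 promoters. CACGTG was found in 2 windows and 7.15% of promoters and AGGTCA in 2 windows and 16.3%. None of these motifs contains another, and they are given as letters in a window, not as bound sites. The annotation holds 3 complete protein-coding transcripts of Gpam and 2 of Mogat1, and the counts per gene do not tell which start was used. Gpam has another window in RefSeq that is not shown and that holds an AGGTCA.

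The authors deposited estimated counts, which were rounded and scaled to CPM, which divides counts by a library total corrected by TMM. Totals were 12174339 to 18735785 counts per liver, and 11746919 to 20107683 after TMM correction, so 3 counts, the limit used here for a gene at 0, corresponded to 0.149 to 0.255 CPM, for counting error only. Adjusted p-values are from edgeR over all genes tested, and 5.03% of those genes were called, 1.66% higher and 3.37% lower in HKO livers. Under total count scaling the calls were 119 higher and 621 lower, against 206 higher and 418 lower as scaled here. Nothing states that the livers were handled in separate batches, and the libraries' order numbers follow the genotype, so order and genotype cannot be told apart. Markers of hepatocytes were abundant in every liver, with 1 of 5 called, the urea cycle enzyme Cps1, which was higher in HKO livers. The summed levels of 5 markers each overlapped between WT and HKO livers for macrophages (58.4 to 139 and 45.3 to 132 CPM), stellate cells (266 to 339 and 228 to 299 CPM), endothelial cells (49.8 to 166 and 86.5 to 188 CPM) and cholangiocytes (40.6 to 50.8 and 30.8 to 107.8 CPM). In bulk liver, fewer cells of a type and less RNA per cell cannot be told apart.

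GPATs catalyse the first acylation. Gpam encodes a mitochondrial GPAT (chr19:55067636-55127238, minus strand, 22 exons). Its level was 656, 368, 311 and 318 CPM in WT livers 1 to 4 and 217, 207, 201 and 205 CPM in HKO livers 1 to 4. All HKO livers lay below all WT livers, and WT liver 1 stood far above the other WT livers. The HKO livers differed little among themselves (207 ± 6.84 CPM, SD, n = 4), whereas WT livers were spread (413 ± 164 CPM). The log2 fold change was -0.995 (SE 0.23, edgeR adjusted p = 0.0486). Without WT liver 1 the log2 fold change was -0.68 with an adjusted p of 0.0049 by edgeR. The call was kept in 3 of the 8 fits that left out 1 liver, and the adjusted p from edgeR went up to 0.126 in the others, without WT liver 2 or any 1 of the HKO livers.

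Gpat3, a GPAT of the endoplasmic reticulum that is prominent in adipocytes, was at 23.0, 35.0, 25.1 and 21.1 CPM in WT livers and 13.7, 14.5, 4.56 and 5.36 CPM in HKO livers. The genotypes did not overlap, and the HKO livers fell into a pair near 14 and a pair near 5 CPM. The log2 fold change was -1.45 (SE 0.42), and edgeR's adjusted p was 0.110. DESeq2 gave an adjusted p of 0.0192 for the same contrast, so the call depends on the tool. Of all genes tested, 12.5% did not overlap between genotypes, with 5.34% higher and 7.19% lower in every HKO liver than in any WT liver, and 3 of the 10 enzymes were lower in this way, Gpam, Gpat3 and Mogat1. Exons of 4930458D05Rik and Gm42987 overlap those of Gpat3 in the annotation, and whether the counting used strand is not given in the sources used here.

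Gpat4, the other GPAT of the endoplasmic reticulum, was at 111, 130, 154.8 and 121 CPM in WT livers and 245, 141, 133 and 165 CPM in HKO livers. HKO liver 1 was the highest and the remaining HKO livers overlapped with WT livers. Its log2 fold change was 0.40 (SE 0.19, edgeR adjusted p = 0.300), and 0.18 without HKO liver 1.

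The balance of GPATs within a liver was described with no test. The log2 ratio of Gpam to Gpat4 was 2.57, 1.5, 1.01 and 1.39 in WT livers and -0.18, 0.56, 0.59 and 0.31 in HKO livers. The genotypes did not overlap in this ratio. They did in the log2 ratio of Gpam to Gpat3, which was 3.39 to 4.83 in WT livers and in HKO livers 3.83 to 5.46, with the higher mean in HKO livers. Per kilobase of the longest annotated protein-coding transcript, Gpam made up 58.2% to 79.4% of the 3 GPATs in WT livers, and in HKO livers 41.8% to 55.9%. Gpat4 made up 15% to 32.4% and 40.0% to 52.9%, so that Gpat4 held a larger share in each HKO liver than in any WT liver. Gpat3 made up 5.61% to 12.1% in WT livers and in HKO livers 2.57% to 7.44%, which overlap. The sum of the 3 was 80.3 to 134 CPM per kilobase in WT livers and in HKO livers 58.1 to 84.0, which overlap through HKO liver 1 alone.

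**Figure D1:**
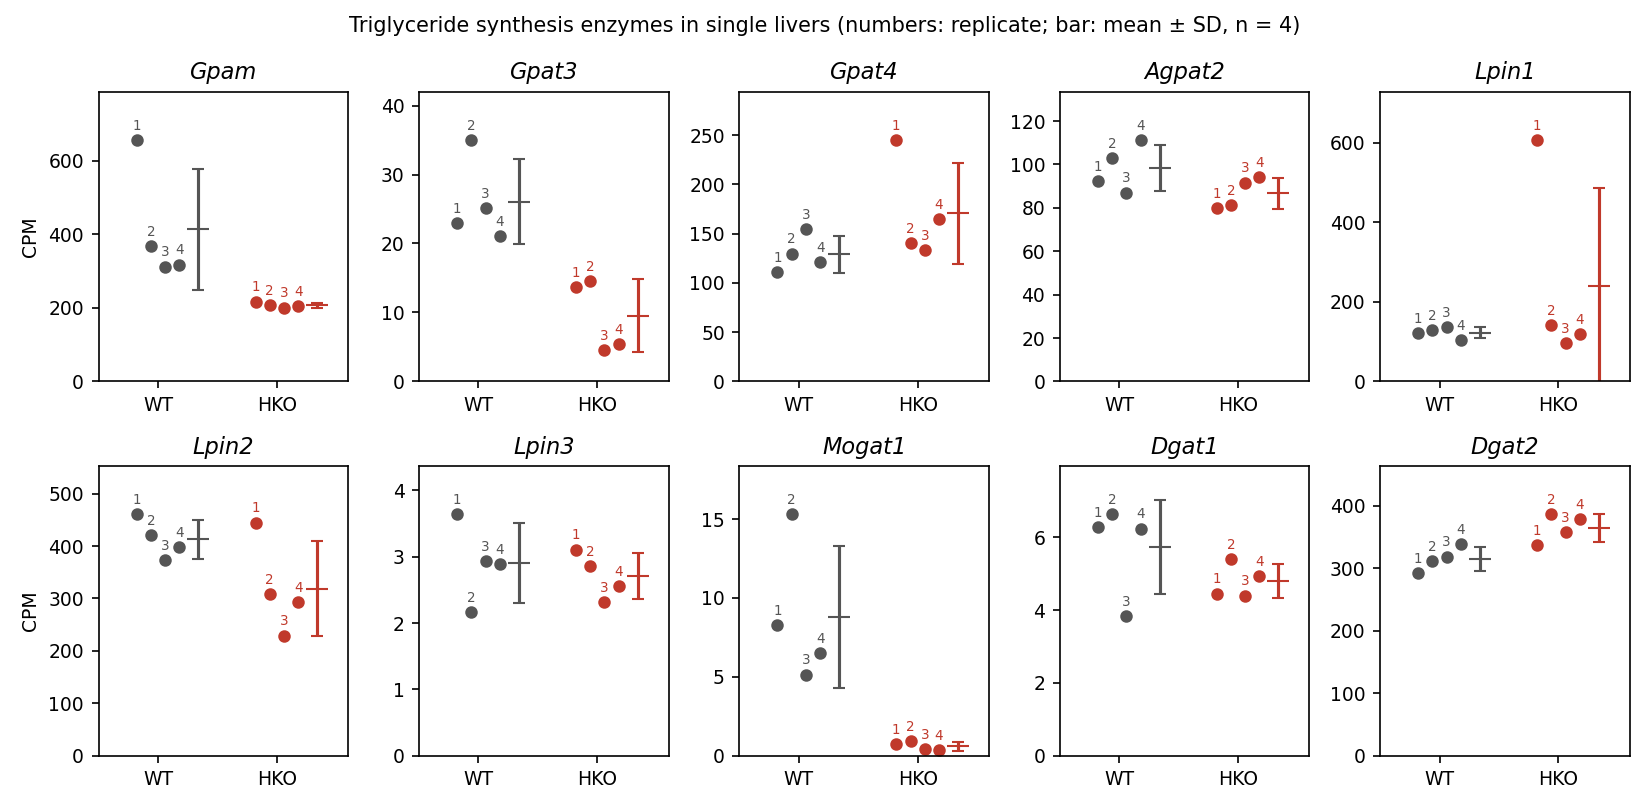
CPM (y axis, from 0) of the 10 enzymes in single WT and HKO livers, with replicate numbers at the points and the mean ± SD (n = 4) beside them. The HKO livers lie below all WT livers for Gpam, Gpat3 and Mogat1, and Lpin1 is high in HKO liver 1, at 607 CPM, whose lower error bar runs past 0.

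Agpat2 encodes an acyltransferase that makes phosphatidate and whose loss causes lipodystrophy in humans. It was at 92.3, 103, 87.0 and 111 CPM in WT livers and 79.7, 81.2, 91.6 and 94.1 CPM in HKO livers. The groups overlapped, and the log2 fold change of -0.18 (SE 0.10) did not pass the test (edgeR adjusted p = 0.323). Other acyltransferases of this step were not called either. Their log2 fold changes were 0.04 for Agpat1, -0.31 for Agpat3 and 0.17 for Agpat5 (edgeR adjusted p = 0.956, 0.141 and 0.515).

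Lipins dephosphorylate phosphatidate, and Lpin1 also acts as a nuclear coactivator. Lpin1 (chr12:16535669-16610966, minus strand) was at 122, 129, 136 and 104 CPM in WT livers and 607, 141, 95.5 and 119 CPM in HKO livers. HKO liver 1 alone was high, and the other 3 HKO livers covered the range of the WT livers. The log2 fold change was 0.97 (SE 0.65, edgeR adjusted p = 0.481), and -0.05 without HKO liver 1. DESeq2 gave Lpin1 no adjusted p.

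Lpin2, the lipin with the highest level per length in WT livers, was at 460, 420, 373 and 398 CPM in WT livers and 445, 308, 229 and 293 CPM in HKO livers. HKO livers 2, 3 and 4 were below all WT livers, and HKO liver 1 was among the WT livers. The log2 fold change was -0.37 (SE 0.17, edgeR adjusted p = 0.273), and without HKO liver 1 it was -0.58 with an adjusted p of 0.0227. Its deposited counts were fractional in all 8 livers, those of Gpam and Lpin1 in 6 livers each, as happens where reads are shared out between features. Lpin3 stayed between 2.16 and 3.64 CPM in all livers (log2 fold change -0.10, SE 0.22, edgeR adjusted p = 0.854).

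HKO liver 1 set the lipin balance apart. The log2 ratio of Lpin1 to Lpin2 was -1.92, -1.70, -1.46 and -1.93 in WT livers and 0.45, -1.13, -1.26 and -1.29 in HKO livers. Without HKO liver 1 the remaining HKO livers were still above all WT livers. In per-length shares, Lpin2 made up 72.4% to 78.4% of the lipins in WT livers and in HKO livers 41.8% to 70.1%, and Lpin1 20.7% to 26.7% and 28.9% to 57.7%.

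**Figure D2:**
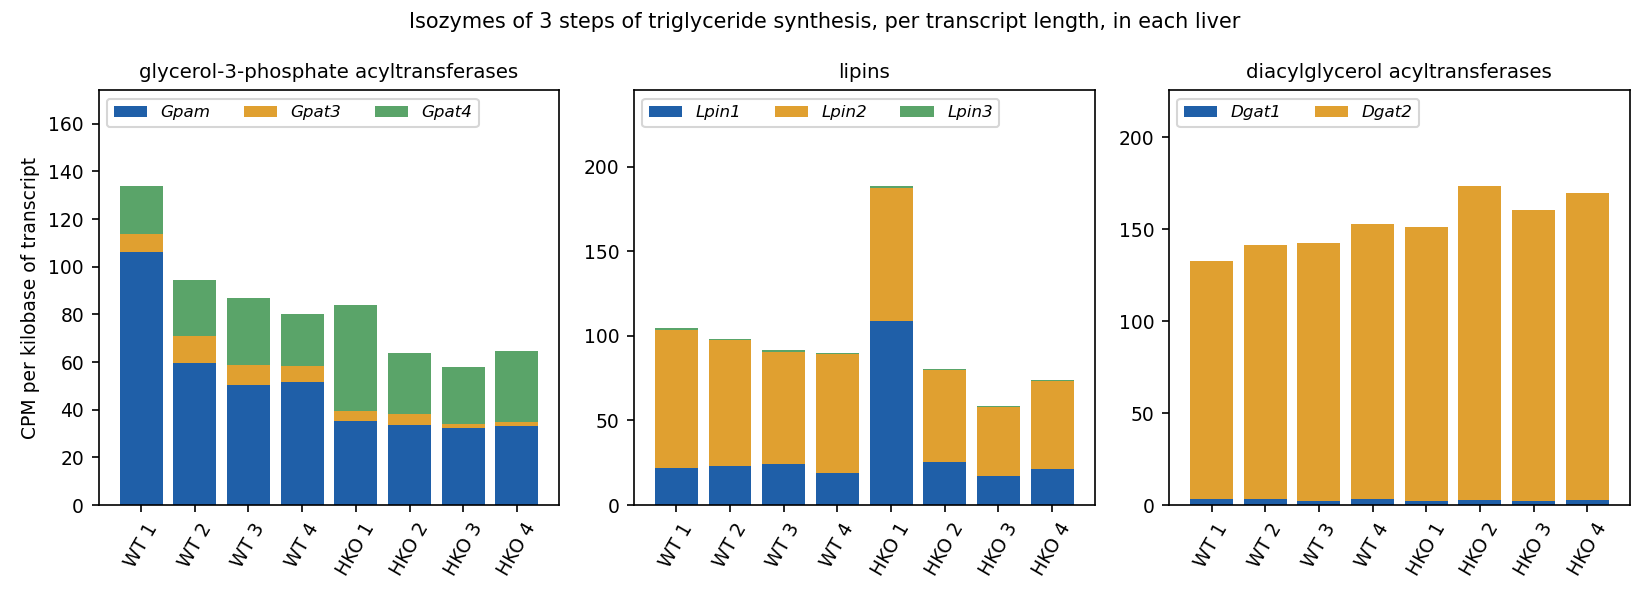
Stacked CPM per kilobase of transcript (y axis, from 0) of the isozymes of the GPAT, lipin and DGAT steps in each of the 8 livers. Gpam is the largest part of the GPAT bars in WT livers, with 58.2% to 79.4%, and the lipin bar of HKO liver 1 reaches 188.

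Mogat1 (chr1:78511060-78538173, plus strand, 7 exons), which acylates monoacylglycerol, was at 8.27, 15.3, 5.12 and 6.51 CPM in WT livers and 0.742, 0.926, 0.394 and 0.341 CPM in HKO livers. These were 100, 219, 103 and 99 counts in WT livers and 11, 12, 7 and 4 counts in HKO livers, so every HKO liver was above the limit of 3 counts. The genotypes did not overlap, and the means of 8.80 ± 4.52 CPM in WT livers and 0.601 ± 0.281 CPM in HKO livers (SD, n = 4) differed by a log2 fold change of -3.86 (SE 0.43, edgeR adjusted p = 0.00182). The call was kept in 8 of the 8 fits that left out 1 liver, with log2 fold changes from -4.12 to -3.44. WT liver 2 was the highest and gave the smallest difference when left out. Exons of BC035947, annotated on the minus strand, overlap those of Mogat1, and the strand of counting is not given in the sources used here. Of 10 enzymes, Mogat1 and Gpam were thus called, or 2 of 10, against 5.03% of all genes tested, and both were lower.

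DGATs complete the triglyceride. Dgat2, which draws on newly made diacylglycerol, was at 292, 311, 318 and 338 CPM in WT livers and 337, 386, 358 and 378 CPM in HKO livers. The genotypes touched only through WT liver 4 and HKO liver 1, and the log2 fold change was 0.21 (SE 0.08, edgeR adjusted p = 0.165). Dgat1, the broadly expressed enzyme, was at 6.28, 6.63, 3.83 and 6.24 CPM in WT livers and 4.45, 5.4, 4.39 and 4.94 CPM in HKO livers. WT liver 3 was the lowest of all 8 livers, the groups overlapped, and the log2 fold change was -0.26 (SE 0.19, edgeR adjusted p = 0.515). The log2 ratio of Dgat2 to Dgat1 was 5.54 to 6.38 in WT livers and in HKO livers 6.16 to 6.35, which overlap. Dgat2 made up 97.5% to 98.6% of the DGAT step per length in WT livers, and in HKO livers 98.3% to 98.5%.

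Across the group, levels per kilobase of the longest protein-coding transcript differed widely. In WT livers the order was Dgat2 (139 ± 8.36 CPM per kilobase, SD, n = 4), Lpin2 (73.2 ± 6.53), Gpam (66.9 ± 26.5), Agpat2 (66.0 ± 7.24), Gpat4 (23.4 ± 3.41), Lpin1 (22.0 ± 2.46), Gpat3 (8.51 ± 2.02), Mogat1 (7.16 ± 3.68), Dgat1 (3.04 ± 0.683) and Lpin3 (0.838 ± 0.173). Within the spread of the livers, Lpin2, Gpam and Agpat2 could not be ordered, nor could Gpat4 and Lpin1, nor Gpat3 and Mogat1. In HKO livers Dgat2 led again (161 ± 9.83) and Mogat1 had the lowest mean (0.489 ± 0.229), next to Lpin3 (0.780 ± 0.100), with which it overlapped. Gpam moved to the fifth place (33.6 ± 1.11), behind Agpat2 (58.2 ± 4.87), Lpin2 (56.5 ± 16.1) and Lpin1 (43.1 ± 43.9), the last of which rests on HKO liver 1. Among HKO livers, Lpin1 ran from 17.1 to 109 CPM per kilobase and overlapped with Agpat2, Lpin2, Gpam and Gpat4 (31.0 ± 9.28). In HKO livers 2 to 4, Lpin1 was below the level of Gpam in any HKO liver. Agpat2 overlapped with Lpin2, Gpat4 with both Lpin2 and Gpam, and Gpat3 (3.12 ± 1.73) with Dgat1 (2.54 ± 0.250). The order depends on the transcript length used, since the shortest annotated protein-coding transcript would put Lpin2 first, at 260 CPM per kilobase in WT livers, ahead of Dgat2 at 139 and Gpam at 129.

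**Figure D3:**
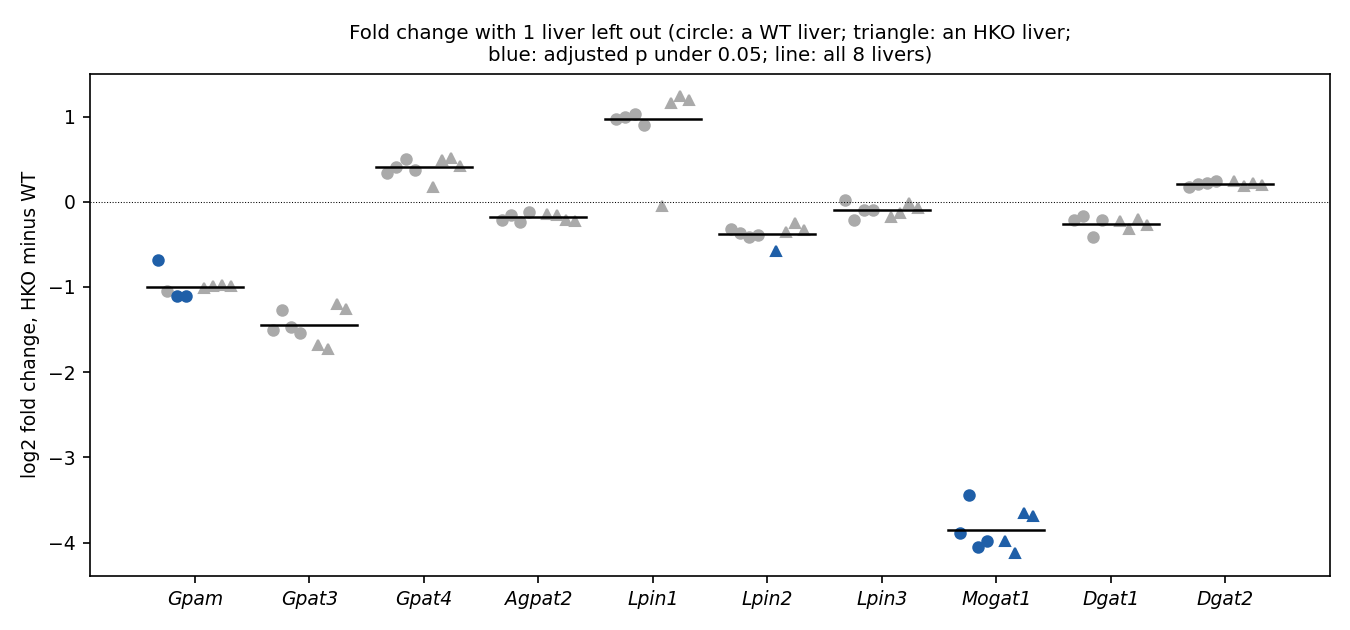
Log2 fold change of each enzyme, HKO minus WT (y axis), when 1 liver is left out, with circles for WT and triangles for HKO livers, blue where the edgeR adjusted p was under 0.05, and a line for all 8 livers. Mogat1 is blue throughout, from -4.12 to -3.44, Gpam is blue in 3 of 8 fits, and Lpin1 drops to -0.05 without HKO liver 1.

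Over the 10 enzymes, 7 log2 fold changes were negative and 3 positive, with a median of -0.22 beside 0.01 over all genes tested. At an unadjusted p under 0.05 with edgeR, which 19.8% of all genes tested passed, 4 of the 10 enzymes did, Gpam, Gpat3, Mogat1 and Dgat2. DESeq2 called 8.2% of genes (3.11% higher and 5.09% lower) and 3 of the 10 enzymes, all lower. With limma-voom 4.91% of genes (1.66% higher and 3.24% lower) and 2 of the 10 enzymes were called.

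Genes in and around the pathway were taken from a list of 17 other glycerolipid genes. The list held further acyltransferases of the pathway, suppliers of glycerol-3-phosphate and acyl-CoA, and enzymes that lead to phospholipids. Of the 17 genes, 14 were tested, 4 fell and 0 rose with edgeR (3.37% and 1.66% of all genes). At an unadjusted p under 0.05, 5 of the 14 passed (19.8% of all genes). DESeq2 and limma-voom each called 4 (8.2% and 4.91% of all genes). The median log2 fold change was -0.23. Agpat4, Mogat2 and Cds1 had too few counts to be tested.

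Of the enzymes that supply glycerol-3-phosphate, Gpd1 and Gk fell, and Gpd1l was not called. Gpd1, which reduces dihydroxyacetone phosphate, was at 276, 340, 281 and 284 CPM in WT livers and 174, 131.5, 195 and 175 CPM in HKO livers (log2 fold change -0.81, SE 0.12, edgeR adjusted p = 0.00385). Gk, which phosphorylates glycerol, was at 340, 329, 290 and 323 CPM in WT livers and 243, 213, 187 and 210 CPM in HKO livers (log2 fold change -0.59, SE 0.09, edgeR adjusted p = 0.00526). Neither overlapped between genotypes, and both were called in 8 of 8 fits without 1 liver. Chpt1, which makes phosphatidylcholine from diacylglycerol, fell from 663 ± 85.2 to 426 ± 61.6 CPM (SD, n = 4), a log2 fold change of -0.64 (SE 0.12, edgeR adjusted p = 0.014), and was called in 7 of 8 fits without 1 liver (edgeR adjusted p = 0.054 without WT liver 2). Acsl1, the main hepatic acyl-CoA synthetase, fell from 1597 ± 140.0 to 1150 ± 189 CPM, a log2 fold change of -0.47 (SE 0.12, edgeR adjusted p = 0.0454), and was called in 2 of 8 fits without 1 liver.

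The 2 genes of this list with the largest fold change that was not called were both acyl-CoA synthetases. Acsl3 was at 64.7 CPM in WT liver 1, the liver with the highest Gpam, and at 20.9 to 33.7 CPM in WT livers 2 to 4, while HKO livers held 20.003 to 29.3 CPM (log2 fold change -0.54, SE 0.34, edgeR adjusted p = 0.443, and -0.14 without WT liver 1). Acsl5 was at 420 to 772 CPM in WT livers and 335 to 476 CPM in HKO livers (log2 fold change -0.40, SE 0.20, edgeR adjusted p = 0.298, and -0.20 without WT liver 1).

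Of 11 regulators of these genes, all tested, 2 fell and 0 rose with edgeR (3.37% and 1.66% of all genes). An unadjusted p under 0.05 was passed by 3, against 19.8% of all genes. DESeq2 and limma-voom each called 2 (8.2% and 4.91% of all genes). The median log2 fold change was -0.03. Pparg, a lipogenic nuclear receptor, was at 22.0, 20.8, 16.3 and 19.4 CPM in WT livers and 9.38, 11.04, 7.44 and 4.94 CPM in HKO livers. These did not overlap (log2 fold change -1.25, SE 0.21, edgeR adjusted p = 0.00977), and the call was kept in 8 of 8 fits without 1 liver.

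Ppara, the nuclear receptor of fatty acid oxidation, was at 661 to 682 CPM in WT livers and 492 to 564 CPM in HKO livers. The change was smaller (log2 fold change -0.33, SE 0.08, edgeR adjusted p = 0.0358), and it was kept in 1 of 8 fits without 1 liver. Srebf2, the sterol regulator whose intron holds Mir33, had a log2 fold change of -0.37 (SE 0.17, edgeR adjusted p = 0.243), with 12.6 to 20.9 CPM in WT and 10.6 to 14.4 CPM in HKO livers. Mlxipl, which encodes the carbohydrate response factor ChREBP, had one of 0.28 (SE 0.17, edgeR adjusted p = 0.404), with 80.4 to 119 CPM and 87.3 to 147 CPM.

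**Figure D4:**
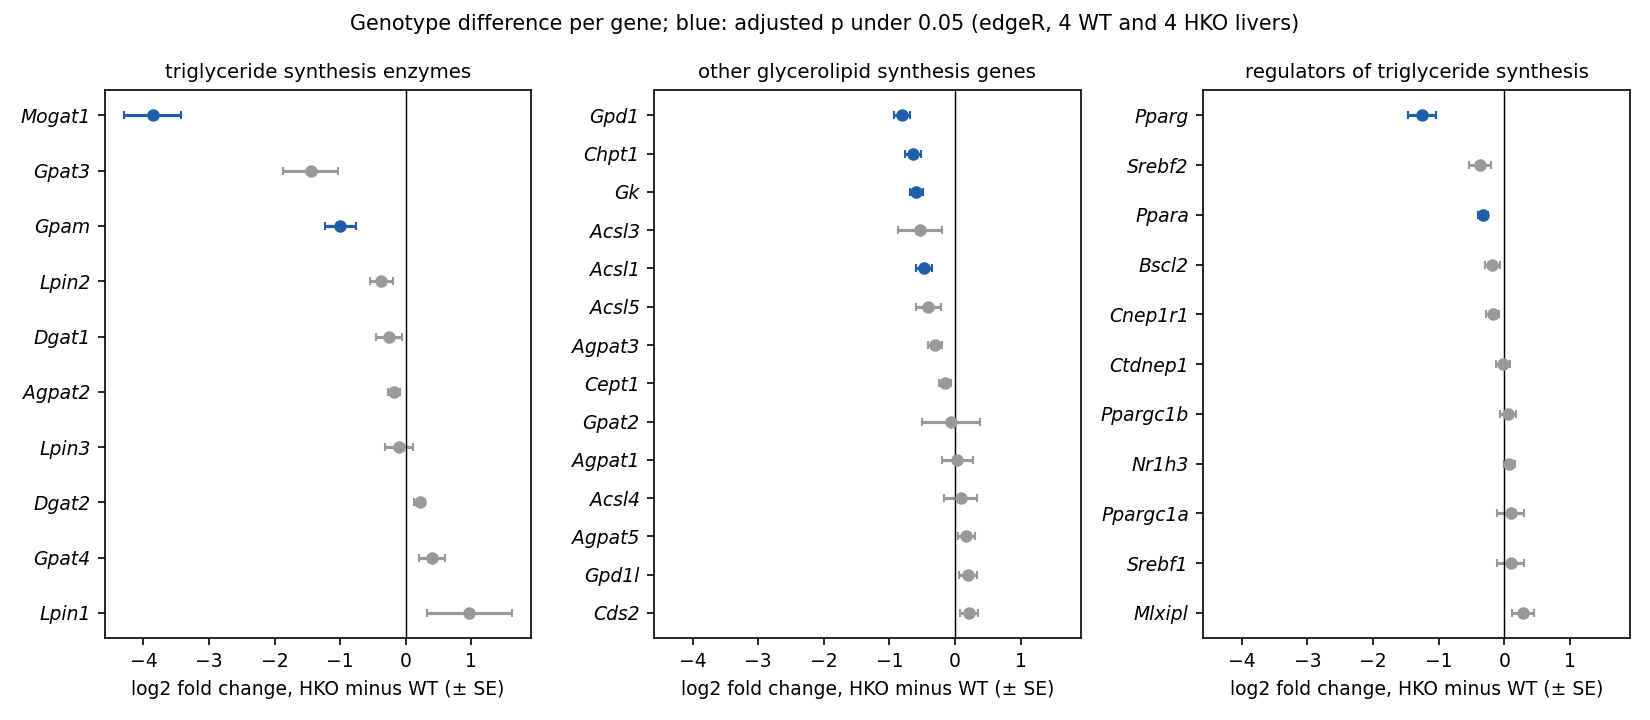
Log2 fold change, HKO minus WT, with its SE (x axis) for the tested genes of 3 lists, each over 4 WT and 4 HKO livers, in blue where the edgeR adjusted p was under 0.05. Mogat1 and Gpam are blue among the enzymes, Gpd1, Chpt1, Gk and Acsl1 among the other glycerolipid genes, and Pparg and Ppara among the regulators.

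Genes whose log2 CPM was most like that of Gpam and of Mogat1 over the 8 livers were ranked by Pearson's r among 11878 genes with a mean of at least 1 CPM. The likeness is a description: the livers share genotype and the genes share libraries. For Gpam they were Fads3 (r 0.98), Ddx56 (0.98), Tmem97 (0.97), Fmn1 (0.96) and Hmgcs1 (0.96), the last the cytosolic HMG-CoA synthase of cholesterol synthesis. In WT liver 1, where Gpam was high, Hmgcs1 was at 1082 CPM, while WT livers 2 to 4 held 187 to 319 CPM and HKO livers 105 to 152 CPM. Fads3, a member of the fatty acid desaturase family, was at 11.99 CPM there and at 5.27 to 5.93 CPM in the other WT livers.

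For Mogat1 they included Prkaca, Ifi27l2b, Lgals1 and Tysnd1, each with r of 0.99. Lgals1, which encodes galectin-1, was at 47.3 to 70.2 CPM in WT livers and 7.15 to 15.1 CPM in HKO livers. As with Mogat1, WT liver 2 was the highest for Lgals1.

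Gpat3, Agpat2 and Mogat1 are also known from adipocytes, so adipocyte markers were read beside them. Of the 4 markers listed, Cfd alone had enough counts to be tested, and Plin1 was not used here. Cfd, the complement factor adipsin, was at 3.89, 6.98, 0.895 and 4.93 CPM in WT livers and 1.28, 1.16, 0.169 and 0 CPM in HKO livers. Its mean was lower in HKO livers, as were those of Gpat3 and Mogat1, and WT liver 2 was the highest for all 3 genes. The log2 fold change of Cfd was -2.65 (SE 0.86, edgeR adjusted p = 0.141), and WT liver 3 overlapped with HKO livers. The defining markers Adipoq (0 or 1 counts), Lep and Retn (0 counts) were at or near 0 in all WT livers. Unlike that of Cfd, their means were higher in HKO livers, at 0.433 CPM for Adipoq, 0.619 for Lep and 0.241 for Retn. The counts of Lep (31 and 5) and Retn (4 and 9) came from HKO livers 1 and 2 alone. The 4 markers summed to 0.895 to 7.05 CPM in WT livers, nearly all of it Cfd, and HKO livers held 0.0851 to 5.06 CPM, which overlap. HKO liver 1, with the high Lpin1, had Lep at 2.09 and Adipoq at 1.42 CPM, the highest of the 8 livers. The part of these cells in the results for Gpat3, Mogat1 and Lpin1 was not tested.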

How the data were processed

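RNA-Seq was analysed from 8 livers, 4 WT and 4 HKO, grouped by the labels. The authors deposited estimated counts per gene (Partek's expectation-maximization quantification; STAR is named in the submitters' processing notes), not normalized, and 80.5% of the values were whole numbers (within 1e-09). The build is not stated, and the coordinates were read as GRCm38. Of 17118 genes compared with GENCODE on that build, 36.1% had the annotated start, 35.3% a stop 1 base past the annotated end and 4.15% a stop equal to it, so ends are given 1 base lower. The labels name both rRNA depletion and a small RNA kit, so the library type is uncertain. Each library has a number of its own in its title, read here as that of a mouse. The descriptions of the 4 WT libraries begin with the same number, which does not match all of their titles. The p-values set the genotype difference against the spread between these mice.

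Counts were rounded and tested with edgeR 4.0.16 in R 4.3.3 (TMM scaling, the default expression filter with a minimum count of 10, robust quasi-likelihood test), with Benjamini-Hochberg adjustment over 12395 genes and a threshold of 0.05. The SE is the absolute log2 fold change over the square root of F. CPM used TMM-scaled totals, and likeness used log2 CPM with a prior count of 2. Lengths, exons and 3′UTRs with their sequences were from GENCODE M21, and the microRNA and promoter sequences from RefSeq. The same contrast was also fitted by DESeq2 1.42.0 and limma-voom (version 3.58.1), with 3 other scalings and 2 other filters, blocking on replicate number, requiring a fold change above 1.5, and leaving out each liver. The models were tested on simulated data. The enzymes and lists were chosen with earlier results of these data known. All 10 enzymes are named, with every called gene and the 2 largest uncalled changes of each list, and the 5 genes most like each called enzyme, except 1 that is not reported here. Python 3.11.15 and matplotlib 3.10.9 drew the plots.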

Additional observations from a re-analysis of the deposited data

Results flagged for a closer look

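In 30 groups of 4 livers (the 10 enzymes and 5 ratios of isozymes or pathway enzymes, in each genotype), 4 had a liver whose gap to the nearest other, divided by the range, was above Dixon's 95% critical value for 4 samples. Chance alone gives about 5% of groups such a gap. Gpam was at 656 CPM in WT replicate 1 and at 311 to 368 CPM in the other WT livers. Lpin1 was at 607 CPM in HKO replicate 1 and at 95.5 to 141 CPM in the other HKO livers, and the log2 ratio of Lpin1 to Lpin2 in the same liver was 0.45, against -1.29 to -1.13 in the others. Dgat1 was at 3.83 CPM in WT replicate 3 and at 6.24 to 6.63 CPM in the other WT livers.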

How the results depend on the processing

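Over all genes, the 624 calls became 1014 with DESeq2, 367 with a fold change above 1.5 required, 250 without WT replicate 1 and HKO replicate 1 together (chosen after seeing the data), and 212 to 598 with 1 liver left out. Of the triglyceride synthesis enzymes, 2 were called, and 1 under RLE scaling (Gpam at an edgeR adjusted p of 0.0503), with no expression filter (0.0864), or with at least 10 counts required in every liver, where Mogat1 was not tested. With 1 liver left out, 1 to 2 enzymes, 2 to 4 of the other glycerolipid genes and 1 to 2 regulators were called. Of the regulators, 1 was called with a fold change above 1.5 required, and 0 with edgeR without WT replicate 1 and HKO replicate 1, where 3 passed an unadjusted p under 0.05 and Pparg had an adjusted p of 0.0574; DESeq2 and limma-voom were not run there. The Lpin1 log2 fold change reversed to -0.050 without HKO replicate 1 (-0.050 to 1.24 over the 8 livers left out) and to -0.054 without that liver and WT replicate 1. The Lpin3 log2 fold change reversed to 0.018 without WT replicate 1 (-0.21 to 0.018). Total count scaling moved the median of all genes from 0.01 to -0.08 and kept the sign of each enzyme's fold change.

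WT and HKO livers share replicate numbers but are different mice. The deviations of same-numbered livers from their genotype means had correlations of -0.15 to 0.01, and those of differently numbered livers -0.21 to 0.24. These few values show no pairing by number but cannot exclude one. With the replicate number as a block, 456 genes, 2 enzymes, 3 other glycerolipid genes and 1 regulator were called, with Chpt1 (edgeR adjusted p = 0.0604) and Ppara (0.0829) lost. Fractional counts and low counts (Mogat1 in HKO livers at 4 to 12 counts) limit the precision of the smallest levels.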

Other observations

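The genes whose log2 CPM was most like that of Lpin1 over the 8 livers were Nucks1, Man2a1, Fkbp5, Sik3 and Clip1, a list chosen after the high value of Lpin1 in HKO replicate 1 had been seen. Fkbp5, a gene known to be induced by glucocorticoids, was at 177 CPM in that liver and at 32.6 to 58.6 CPM in the other 7. Sik3, a salt-inducible kinase, was at 45.8 CPM there and at 27.1 to 32.2 CPM elsewhere. The markers of cholangiocytes summed to 107.8 CPM in HKO replicate 2 and to 30.8 to 53.1 CPM in the other livers, and no enzyme was farthest from its group in HKO replicate 2 by the criterion given above.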
